A study of Mus musculus with 6 samples.

Results

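The 10 genes described here encode transporters that carry amino acids across the plasma membrane, or a subunit of such a transporter: Slc7a1, Slc7a2, Slc7a3, Slc7a5, Slc7a11, Slc3a2, Slc1a4, Slc1a5, Slc38a2 and Slc6a9. They were found by gene symbol among the 54532 genes of the expression table, and all 10 were present. They had been selected on their knockout and control values in these same libraries, so their values below, and the calls they had in the fit over all genes, are a description and not a test of them. RNA of mouse pancreatic islets was sequenced after poly(A) selection in 6 libraries. Of these, 3 came from Ythdc1flox/flox mice, which carry the floxed allele and serve as controls, and 3 from Ythdc1-βKO mice, called bKO here, in which the floxed Ythdc1 gene is removed in beta cells. All mice were 7 weeks old, and the labels call the 3 replicates of a group independent biological replicates. The labels name no Cre driver, and 2 bKO samples (replicates 2 and 3) carry a description that speaks of another Ythdc gene, although Ythdc1 is the gene in their genotype label. Ythdc1 encodes a nuclear protein that reads N6-methyladenosine in RNA.

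Amino acid transporters of the plasma membrane set which amino acids reach the cytosol, and each family has its own substrates and coupling. Cationic transporters take up arginine, lysine and ornithine as charged substrates. Heterodimeric exchangers trade one amino acid for another, and many of them need the heavy chain Slc3a2 to reach the membrane. Sodium-coupled carriers concentrate small neutral amino acids that the exchangers can then use. In islets, arginine entry depolarises endocrine cells and is a classic stimulus of insulin and glucagon release. Several of these genes are known targets of ATF4, the transcription factor of the integrated stress response, which binds with C/EBP partners to C/EBP-ATF response elements.

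Levels are in FPKM, a read count divided by gene length and by a size factor of the library, so levels of different genes can be set side by side. Read counts were recovered exactly from the FPKM, with 16863329 to 18240339 reads per library. A difference is given as the log2 fold change on the log2(FPKM + 1) scale, bKO minus control, with its standard error (SE) from limma over 3 and 3 libraries. This scale understates the change of genes with a low level. "Rose" and "fell" are used where limma's adjusted p, taken over the 15717 genes tested, was under 0.05, and for the 10 transporters these words describe that fit only. Ythdc1 itself (chr5:86804221-86836659) was at 5.76, 6.46 and 6.18 FPKM in control and at 3.81, 3.79 and 3.87 in bKO, and its log2 fold change was -0.56 ± 0.06 (SE, adjusted p = 0.0014, limma). The samples are whole islets, so RNA of cells other than beta cells is included, and fewer cells of a type cannot be told apart from less RNA per cell. Scaling by library totals in place of the authors' factors moved the median log2 fold change of all genes from -0.01 to 0.13 and the share of calls that were higher from 44.1% to 83.4%.

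Promoter sequences are shown for Slc7a11 and Slc1a4 because these are the members whose promoter window held the core of the C/EBP-ATF response element, and their mean FPKM in bKO was 19.3 and 2.10 times the control mean. Each is from RefSeq on GRCm38.p6 and is written 5′ to 3′ on the gene's minus strand. Capitals mark the matches to TGATGNAA or its reverse complement. The Slc7a11 stretch is the 250 bases before the annotated start at chr3:50443614-50443863, and the Slc1a4 stretch at chr11:20332710-20332963 ends 4 bases into the transcript.
Slc7a11: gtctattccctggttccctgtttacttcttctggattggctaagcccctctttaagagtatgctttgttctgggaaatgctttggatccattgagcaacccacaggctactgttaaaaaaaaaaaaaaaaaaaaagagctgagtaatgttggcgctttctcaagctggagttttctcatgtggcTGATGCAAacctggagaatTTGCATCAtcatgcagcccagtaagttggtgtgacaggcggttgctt
Slc1a4: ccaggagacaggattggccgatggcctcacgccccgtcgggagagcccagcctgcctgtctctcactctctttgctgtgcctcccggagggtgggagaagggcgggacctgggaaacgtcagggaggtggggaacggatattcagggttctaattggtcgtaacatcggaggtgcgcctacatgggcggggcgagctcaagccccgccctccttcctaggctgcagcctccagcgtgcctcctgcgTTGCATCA

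In bKO islets, mRNA of most of these transporters was higher, while Slc7a2, the most abundant of them in control islets, was lower. Of the 10 genes, 9 passed the filter on low values, which asked for 0.5 FPKM or more in 3 or more libraries, and among them 6 rose, 1 fell and 2 were not called. Over all genes tested, 8.96% rose and 11.4% fell. The 6 that rose were Slc7a1, Slc7a3, Slc7a5, Slc1a4, Slc38a2 and Slc6a9, Slc7a2 fell, and Slc3a2 and Slc1a5 were not called. Slc7a11 missed the filter with 1 of 6 libraries at or above 0.5 FPKM. In 7 of the 10 genes every bKO library was above every control library, in 1 every bKO library was below, and in 2 the groups overlapped. The same separation was found in 18.5% of all genes tested for higher and in 21.6% for lower. The median log2 fold change of the 9 tested genes was 0.48, against -0.01 for all genes tested. Since the genes were selected on this contrast, nothing is read from these counts. Markers of other islet cells moved with the groups too. The sum of 6 delta and PP cell markers ran from 9912 to 12102 FPKM in control and from 16338 to 19381 in bKO, where 2 of 6 rose, Ppy and Pyy. The sum of 6 Schwann cell markers ran from 2.80 to 4.68 FPKM in control and from 5.56 to 7.02 in bKO, where 3 of 5 tested rose. All 3 of these passed the filter on low values only through the bKO libraries. No marker of these lists was at 0, and their part in the transporter differences was not tested.

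**Figure D1:**
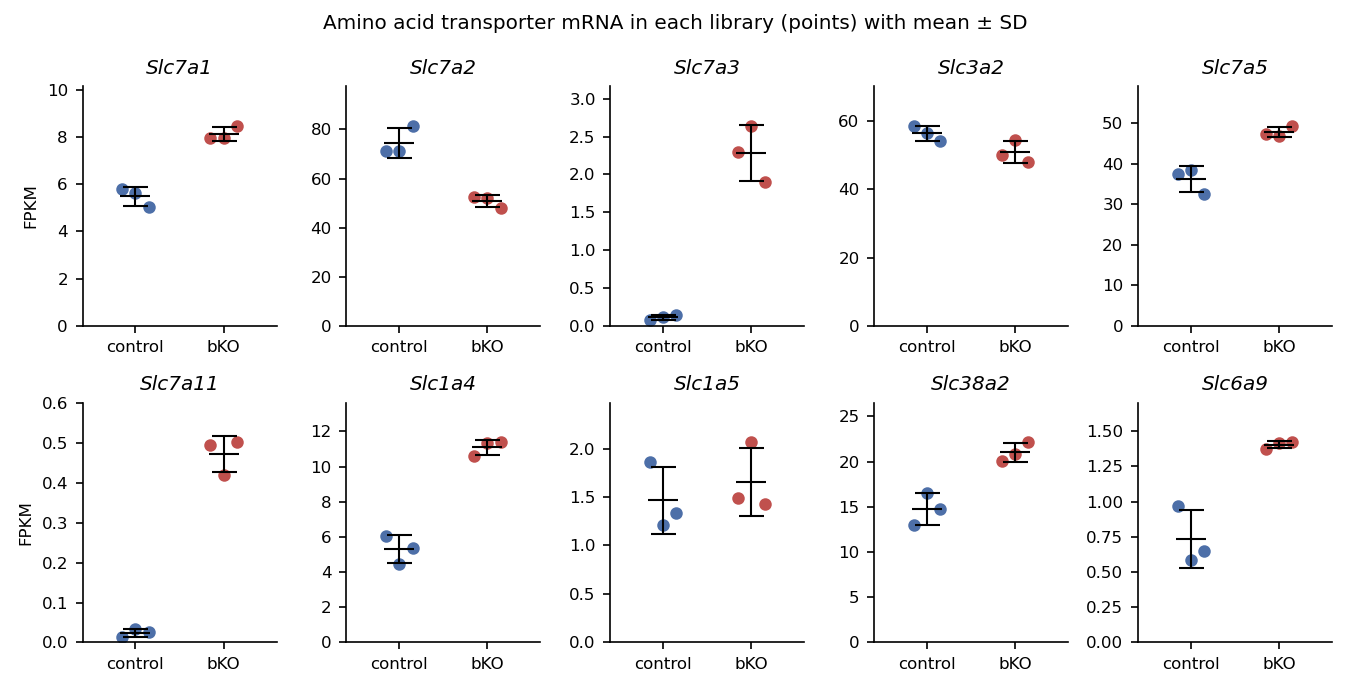
FPKM of each of the 10 transporters (one panel per gene, each y axis starting at 0 and having its own scale) in the 3 control libraries (blue) and the 3 bKO libraries (red); points are libraries and bars are the mean ± SD. The groups overlap for Slc3a2 and Slc1a5, bKO lies below control for Slc7a2, and bKO lies above control in the other panels.

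The cationic transporters showed opposite directions within a single family. Slc7a2 (ENSMUSG00000031596, chr8:40862396-40922308, plus strand) encodes CAT2, a carrier of arginine, lysine and ornithine. It was at 71.1, 71.0 and 81.4 FPKM in control and at 52.6, 52.0 and 48.1 in bKO. Every bKO library was below every control library, control 3 was the highest of all and bKO 3 the lowest. The group means were 74.5 ± 5.97 and 50.9 ± 2.41 FPKM (SD, n = 3 each), a ratio of 0.683, and the log2 fold change was -0.54 ± 0.06 (SE). With scaling by library totals it was -0.36, still called.

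Alpha cells, the glucagon cells of the islet, also hold Slc7a2 mRNA. Summed FPKM of 8 alpha cell markers ran from 18442 to 22424 in control and from 16795 to 20093 in bKO, none of these markers was at 0, and 1 of the 7 tested rose. The glucagon gene Gcg, which made up most of this sum, was, like Slc7a2, highest in control 3 and lowest in bKO 3. Slc7a2 per 1000 Gcg was 3.97, 4.09 and 3.83 in control and 2.85, 2.74 and 3.05 in bKO, so bKO was lower per Gcg too. The beta cell marker sum was also lower, with 202186 to 224050 FPKM in control and 131784 to 140980 in bKO, where 6 of 9 tested markers fell and 1 rose. The insulin genes Ins1 and Ins2 made up most of the beta cell sum. Their means were 61085 and 134303 FPKM in control and 34529 and 84754 FPKM in bKO. Ucn3 was the beta cell marker that rose, and Pdx1 and Iapp were not called. The part of alpha and beta cells in the Slc7a2 difference was not tested. Slc7a2 shares 635 of its 9135 exonic bases with Gm26584, a lincRNA on the opposite strand. That RNA had 34 to 96 reads per library, while Slc7a2 had 8129 to 12046.

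Slc7a1 (ENSMUSG00000041313, chr5:148327410-148399904, minus strand) encodes CAT1, the widely expressed high-affinity arginine and lysine carrier. It was at 5.80, 5.63 and 5.03 FPKM in control and at 7.94, 7.96 and 8.47 in bKO. The 3 bKO libraries lay close together above the controls. The means were 5.49 ± 0.41 and 8.12 ± 0.30 FPKM (SD, n = 3 each), and the log2 fold change was 0.49 ± 0.06 (SE). Endothelial markers moved the same way, with a sum over 11 genes of 170 to 197 FPKM in control and 219 to 225 in bKO, 6 of 11 rising and none at 0. Their part in the Slc7a1 difference was not tested.

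Slc7a3 (ENSMUSG00000031297, chrX:101079210-101086020, minus strand) encodes CAT3, a cationic carrier known mainly from brain and the embryo. It was near 0 in control, at 0.0821, 0.123 and 0.147 FPKM, from 5, 8 and 9 reads. In bKO it was at 2.30, 2.64 and 1.90 FPKM, from 167, 181 and 133 reads. The lowest bKO library thus held many more reads than all 3 controls together, and Slc7a3 passed the filter on low values only through the bKO libraries. Summed over libraries there were 22 control and 481 bKO reads, a size-scaled ratio of 19.4 with a 95% interval of 12.7 to 31.3 that covers counting error only. The log2 fold change was 1.55 ± 0.11 (SE) on the log2(FPKM + 1) scale and 4.21 ± 0.41 (SE) with limma voom on the recovered reads. Among genes tested its rise ranked 43rd.

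The 3 cationic transporters together fell short of the control level, because the gain of Slc7a1 and Slc7a3 was smaller than the loss of Slc7a2. Their sum was 77.0, 76.8 and 86.6 FPKM in control and 62.8, 62.6 and 58.5 in bKO, with no overlap. Slc7a1 and Slc7a3 together went from 5.60 ± 0.38 to 10.4 ± 0.18 FPKM (SD, n = 3 each). Within the sum, the share of Slc7a2 was 93.0 ± 0.92% in control and 83.0 ± 0.71% in bKO. Slc7a1 made up 6.89 ± 0.95% and 13.3 ± 1.04%, and Slc7a3 0.145 ± 0.034% and 3.71 ± 0.49% (SD, n = 3 each).

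The light chains Slc7a5 and Slc7a11 were higher in bKO, and the heavy chain Slc3a2 was not. Slc3a2 (ENSMUSG00000010095, chr19:8706882-8723369, minus strand) encodes the CD98 heavy chain, the glycoprotein that carries Slc7 light chains to the membrane. It was at 58.6, 56.6 and 54.2 FPKM in control and at 50.2, 54.6 and 48.2 in bKO. The second bKO library lay among the controls, so the groups overlapped. The log2 fold change was -0.15 ± 0.06 (SE), was not called, and turned to 0.03 with scaling by library totals. With voom it was -0.15 and was called lower.

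Slc7a5 (ENSMUSG00000040010, chr8:121881150-121907694, minus strand) encodes LAT1, the light chain that exchanges leucine and other large neutral amino acids. It was at 37.6, 38.5 and 32.6 FPKM in control and at 47.4, 47.0 and 49.4 in bKO. All bKO libraries were above all controls, and control 3 was the lowest. The means were 36.3 ± 3.17 and 47.9 ± 1.27 FPKM (SD, n = 3 each), and the log2 fold change was 0.40 ± 0.07 (SE). Slc3a2 mRNA per Slc7a5 mRNA was 1.56, 1.47 and 1.66 in control and 1.06, 1.16 and 0.976 in bKO.

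Slc7a11 (ENSMUSG00000027737, chr3:49892526-50443614, minus strand) encodes xCT, the light chain that imports cystine in exchange for glutamate and so feeds glutathione synthesis. It was at 0.0134, 0.0333 and 0.0266 FPKM in control, from 3, 8 and 6 reads. In bKO it was at 0.494, 0.420 and 0.501 FPKM, from 132, 106 and 129 reads. The groups were far apart, but the level in bKO was still the lowest of the 10 transporters. From 17 control and 367 bKO reads the size-scaled ratio was 19.2, with a 95% interval of 11.8 to 33.2 for counting error only. Its gene length of 13922 bases kept its FPKM low at these read counts. With voom on the recovered reads and a filter that asked for 1 CPM or more (reads scaled to a common library total) in 3 or more libraries, its log2 fold change was 4.22 ± 0.44 (SE). Under that fit 7 of the 10 genes rose, against 13.9% of the 15041 genes tested, and 2 fell, Slc7a2 and Slc3a2, against 16.5%. Among those that rose, Slc7a11 and Slc7a3 passed this CPM filter only through the bKO libraries. Macrophages are another cell type that can hold Slc7a11 mRNA, and their 13 markers summed to 125 to 143 FPKM in control and 77.9 to 95.6 in bKO. Of the 11 tested, 5 fell, and Itgam was at 0 in 1 bKO library. Mrc1, which was not tested, was higher in every bKO library, at 0.165 to 0.229 FPKM against 0.0780 to 0.109 in control. The part of macrophages in the Slc7a11 difference was not tested.

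Slc7a8, a light chain outside the 10 genes, has to be set beside Slc7a5, since both pair with Slc3a2. It encodes LAT2, a neutral amino acid exchanger. It fell from 52.8, 50.8 and 51.9 FPKM to 34.6, 35.3 and 32.3, with a log2 fold change of -0.59 ± 0.04 (SE, adjusted p = 0.00046, limma). The sum of 6 light chains (Slc7a5, Slc7a6, Slc7a7, Slc7a8, Slc7a10 and Slc7a11) was 96.3, 94.9 and 89.9 FPKM in control and 89.4, 89.2 and 89.1 in bKO. With scaling by library totals every bKO sum lies above every control sum, so the order of the groups in this sum depends on the scaling. Within that sum Slc7a5 went from 38.7 ± 2.18% to 53.7 ± 1.48% and Slc7a8 from 55.4 ± 2.16% to 38.2 ± 1.73% (SD, n = 3 each). Slc7a5 was therefore the more abundant of the pair in every bKO library and the less abundant in every control library. Slc3a2 per summed light chain was 0.603 ± 0.006 in control and 0.571 ± 0.037 in bKO (SD, n = 3 each), with overlapping groups.

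**Figure D2:**
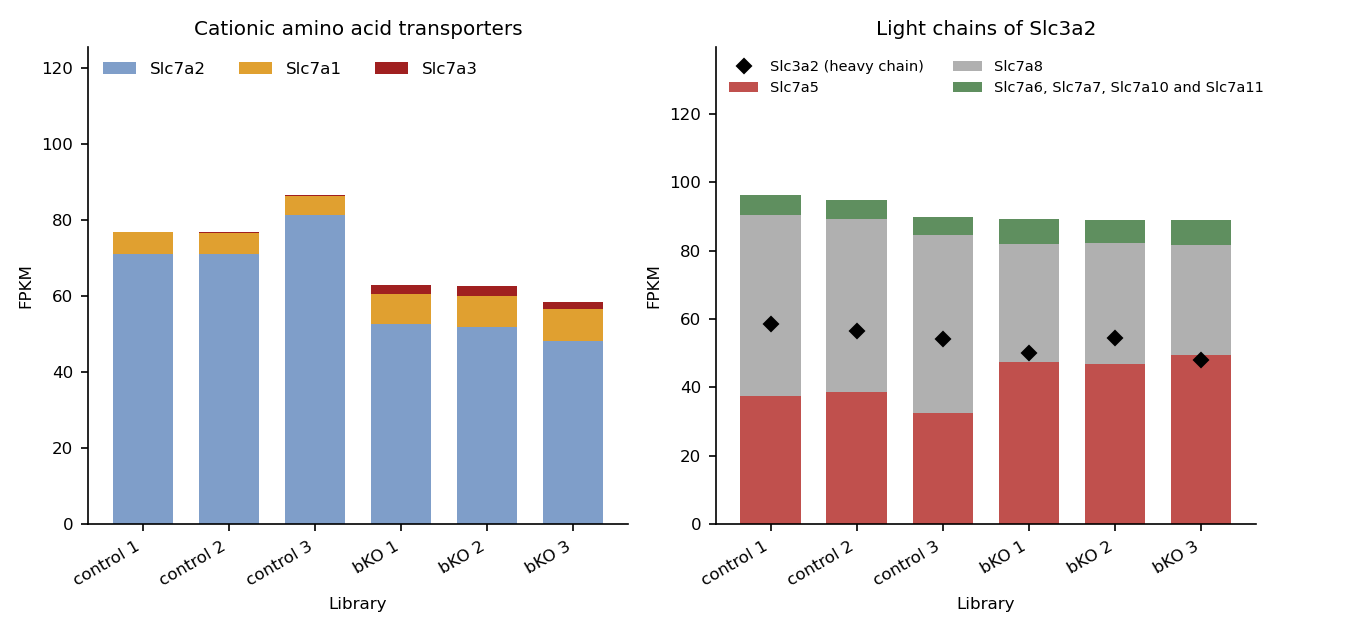
Stacked FPKM per library of the 3 cationic transporters (left) and of the light chains that pair with Slc3a2 (right, with Slc3a2 as a diamond); both y axes start at 0. Slc7a2 takes 93.0% of the cationic sum in control and 83.0% in bKO, and Slc7a5 goes from 38.7% to 53.7% of the light chains while Slc7a8 goes from 55.4% to 38.2%.

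The pair of ASCT carriers, which exchange alanine, serine and cysteine with sodium, did not move together. Slc1a4 (ENSMUSG00000020142, chr11:20302180-20332713, minus strand) encodes ASCT1. It was at 6.04, 4.45 and 5.38 FPKM in control and at 10.6, 11.3 and 11.4 in bKO. The bKO libraries were all far above the controls, with means of 5.29 ± 0.80 and 11.1 ± 0.43 FPKM (SD, n = 3 each). The ratio was 2.10 and the log2 fold change 0.95 ± 0.10 (SE), the largest among the genes of this set that were above 1 FPKM in every library. Slc1a5 (ENSMUSG00000001918, chr7:16781340-16798274, plus strand) encodes ASCT2, which also carries glutamine. It was at 1.86, 1.21 and 1.33 FPKM in control and at 1.48, 2.06 and 1.43 in bKO. The groups overlapped, and the log2 fold change was 0.11 ± 0.14 (SE). From 87 to 156 reads per library lay behind Slc1a5. Slc1a4 mRNA per Slc1a5 mRNA was 3.25, 3.68 and 4.04 in control and 7.14, 5.48 and 7.97 in bKO.

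Slc38a2 (ENSMUSG00000022462, chr15:96687392-96699730, minus strand) encodes SNAT2, the sodium-coupled carrier of small neutral amino acids that cells raise under amino acid shortage. It was at 13.0, 16.5 and 14.8 FPKM in control and at 20.1, 20.9 and 22.1 in bKO. All bKO libraries were above all controls. The means were 14.8 ± 1.77 and 21.0 ± 1.03 FPKM (SD, n = 3 each), and the log2 fold change was 0.49 ± 0.09 (SE).

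Slc6a9 (ENSMUSG00000028542, chr4:117834506-117875198, plus strand) encodes GlyT1, the sodium- and chloride-coupled glycine carrier. It was at 0.966, 0.587 and 0.648 FPKM in control, from 80, 52 and 54 reads. In bKO it was at 1.38, 1.42 and 1.42 FPKM, from 136, 132 and 135 reads. The bKO libraries were nearly equal and above the controls, among which control 1 was the highest. The log2 fold change was 0.48 ± 0.11 (SE), and this rise was called under 8 of 16 settings. Slc6a9 shares 1429 of its 5141 exonic bases with Ccdc24, which had 8 to 17 reads per library, and 46 with B4galt2, both on the opposite strand. Whether the counting used strand was not given, so such reads cannot be told apart.

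The order of levels changed at the top and in the middle. In control it was Slc7a2, Slc3a2, Slc7a5, Slc38a2, Slc7a1, Slc1a4, Slc1a5, Slc6a9, Slc7a3 and Slc7a11, and the ranges of Slc7a1 and Slc1a4 overlapped. In bKO, Slc3a2, Slc7a2 and Slc7a5 had means of 51.0, 50.9 and 47.9 FPKM, and the ranges of neighbours overlapped, so these 3 had no order beyond their spread. Below them came Slc38a2, Slc1a4 and Slc7a1, then Slc7a3 and Slc1a5 with overlapping ranges, then Slc6a9 and Slc7a11. Added up, the 10 transporters came to 195.1, 194.7 and 195.6 FPKM in control and 194.4, 200.2 and 192.9 in bKO. The summed level of the groups thus overlapped under the authors' factors while the composition differed. Scaling by library totals multiplies control values by 0.930 to 0.961 and bKO values by 1.06 to 1.08. With that scaling every bKO sum lies above every control sum, so the overlap depends on the scaling.

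Other amino acid transporters of the plasma membrane were taken from a list of 35 genes by function, and most of those tested were not called. Of the 14 that passed the filter, 1 rose, 3 fell and 10 were not called. Over all genes tested, 8.96% rose and 11.4% fell. The median log2 fold change was 0.02. The riser was Slc16a10, which encodes the aromatic amino acid carrier TAT1, at 0.36 ± 0.06 (SE, adjusted p = 0.0096, limma). Besides Slc7a8, the genes that fell were Slc38a4, the SNAT4 carrier, at -0.65 ± 0.05 (SE, adjusted p = 0.00053), and Slc43a2, the LAT4 carrier of large neutral amino acids, at -0.40 ± 0.05 (SE, adjusted p = 0.0035). Slc38a4 went from 81.0, 82.1 and 75.0 FPKM to 48.3, 52.5 and 50.1, the opposite direction to its relative Slc38a2. Slc38a5, a glutamine carrier of the same family, had means of 9.74 FPKM (control) and 9.47 FPKM (bKO) with overlapping groups and was not called.

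**Figure D3:**
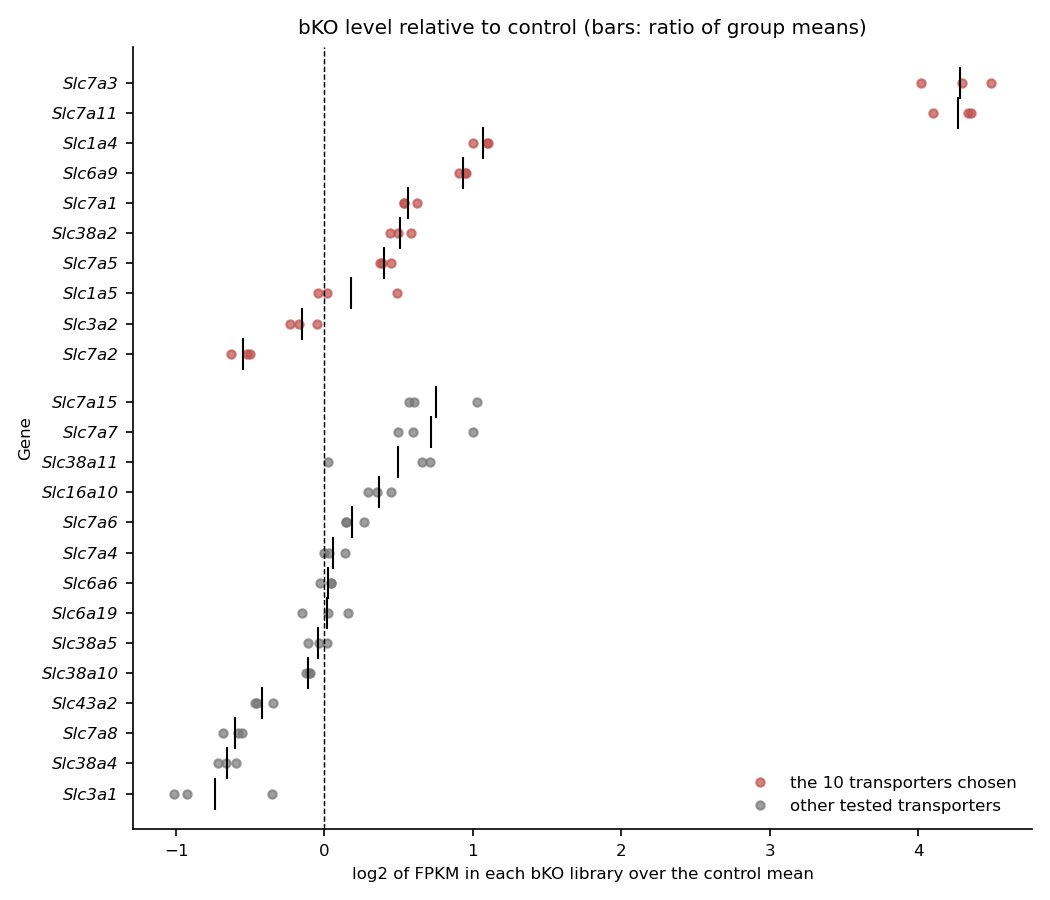
FPKM of each bKO library over the control mean, on a log2 axis, for the 10 transporters (red) and the 14 other plasma membrane amino acid transporters that passed the filter (grey); black bars give the ratio of group means and the dashed line marks no difference. Slc7a3 and Slc7a11 lie at ratios of 19.5 and 19.3, and all libraries of Slc7a2, Slc3a2, Slc3a1, Slc7a8, Slc38a4, Slc38a10 and Slc43a2 lie to the left of the line. Slc1a5, Slc38a5, Slc6a6, Slc6a19 and Slc7a4 have libraries on both sides.

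Genes that use or make the substrates of these transporters were listed by function, with results of these data already known. Of 9 tested genes of arginine use or synthesis, 4 rose and none fell, against 8.96% and 11.4% of all genes tested. The median log2 fold change was 0.34. The number that rose was 7 with scaling by library totals and 2 without control 2. Ass1, which makes argininosuccinate on the way from citrulline to arginine, went from 0.926, 0.889 and 0.716 FPKM to 3.24, 3.50 and 3.05, with a log2 fold change of 1.21 ± 0.09 (SE, adjusted p = 0.0004, limma). Nos1, the neuronal nitric oxide synthase, had 0.64 ± 0.12 (adjusted p = 0.011), Gatm, which starts creatine synthesis from arginine and glycine, 0.69 ± 0.15 (adjusted p = 0.021), and Oat, the ornithine aminotransferase, 0.34 ± 0.07 (adjusted p = 0.02). Nos1, at 0.0208 to 0.0724 FPKM in control, passed the filter on low values only through the bKO libraries, and Gatm and Oat were each called under 13 of 16 settings. The arginine-consuming enzyme Arg1 had means of 19.4 ± 2.72 FPKM (control) and 20.6 ± 0.60 FPKM (bKO; SD, n = 3 each) and was not called.

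On the cystine side, which Slc7a11 supplies, 13 genes were tested. Of these 2 rose and 2 fell, against 8.96% and 11.4% of all genes tested, and the median log2 fold change was -0.02. With the replicate block or quantile normalization 1 rose and 1 fell. Chac1, which degrades glutathione, had a log2 fold change of 1.86 ± 0.10 (SE, adjusted p = 0.00015, limma), and Cth, which makes cysteine from cystathionine, 0.59 ± 0.13 (adjusted p = 0.022). Cbs, the enzyme just before Cth, went the other way at -0.96 ± 0.08 (adjusted p = 0.00062). Gpx4, the glutathione-dependent lipid peroxidase, had -0.19 ± 0.05 (adjusted p = 0.046) and was called under 7 of 16 settings, as Cth was under 10. Cth, at 0.156 to 0.291 FPKM in control, passed the filter only through the bKO libraries. Both genes of the first step of glutathione synthesis, Gclc and Gclm, were not called, with log2 fold changes of 0.16 and 0.04.

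Glycine and serine are substrates of Slc6a9 and Slc1a4. Of 10 tested genes of their use 3 rose and none fell, against 8.96% and 11.4% of all genes tested. The median log2 fold change was 0.12. With scaling by library totals 6 rose, and with voom 5. Among the 3 were Shmt2 and Shmt1, which interconvert serine and glycine in mitochondria and cytosol, at 0.67 ± 0.07 (SE, adjusted p = 0.0013, limma) and 0.54 ± 0.09 (adjusted p = 0.0072). Amt, a subunit of the glycine cleavage system, was at 0.46 ± 0.07 (adjusted p = 0.0055).

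A list of ATF4 and genes known as its targets, with the 10 transporters left out, had 25 tested genes. Of these 22 rose, none fell and 3 were not called, against 8.96% higher and 11.4% lower of all genes tested. Over the settings 20 to 24 rose. With the CPM filter, with voom, with voom plus the CPM filter and without control 3, 1 fell. The median log2 fold change was 0.63, against -0.01 for all genes. Results for part of this list were known when it was written, so its count is not independent evidence. Of the 22, Stc2 and Cth passed the filter on low values only through the bKO libraries. Ddit4 went the other way, with means of 141 ± 33.4 FPKM in control and 91.3 ± 13.1 FPKM in bKO (SD, n = 3 each). Its groups overlapped, and its log2 fold change of -0.61 ± 0.18 (SE) was not called. Nupr1, a stress-induced nuclear protein, went from 5.34, 4.43 and 4.32 FPKM to 51.9, 56.2 and 50.8, with a log2 fold change of 3.25 ± 0.08 (SE, adjusted p = 1.2e-05, limma). Phgdh, the first enzyme of serine synthesis, had 1.41 ± 0.07 (adjusted p = 0.00015) and Ddit3, the factor CHOP, 1.05 ± 0.06 (adjusted p = 0.00024). Atf4 itself, named outside the rule, was at 112, 118 and 104 FPKM in control and at 134, 147 and 129 in bKO, with 0.29 ± 0.06 (adjusted p = 0.021), and was called under 12 of 16 settings. Beside these, the 10 transporters ranged from Slc7a3 and Slc7a11, at 19.5 and 19.3 times the control level, to Slc7a2, at 0.683 times.

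The promoter windows, 300 bases from 250 before to 50 after an annotated start, were available for 6 of the 10 genes, in 9 windows, and not for Slc7a2, Slc7a3, Slc7a5 and Slc1a5. The core TGATGNAA was searched on both strands. In the Slc7a11 sequence above it occurs at bases -66 to -59 on the coding strand and again at -47 to -40 on the other strand, so the copies lie in opposite orientation. In Slc1a4 it occurs at -4 to 4 on the other strand, across the annotated start. The windows of Slc7a1, Slc38a2, Slc3a2 and Slc6a9 held no match. Of all 32851 RefSeq windows, 3.97% held at least 1 match and 0.07% held at least 2, as Slc7a11 does. The core of the antioxidant response element, TGACNNNGC, was found in windows of Slc7a1, Slc38a2 and Slc6a9 and in 12.4% of all windows. The E-box CACGTG was in none of the 9 windows and in 7.15% of all. A match is a run of letters and not a binding site, and none says only that these letters are not in that window.

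**Figure D4:**
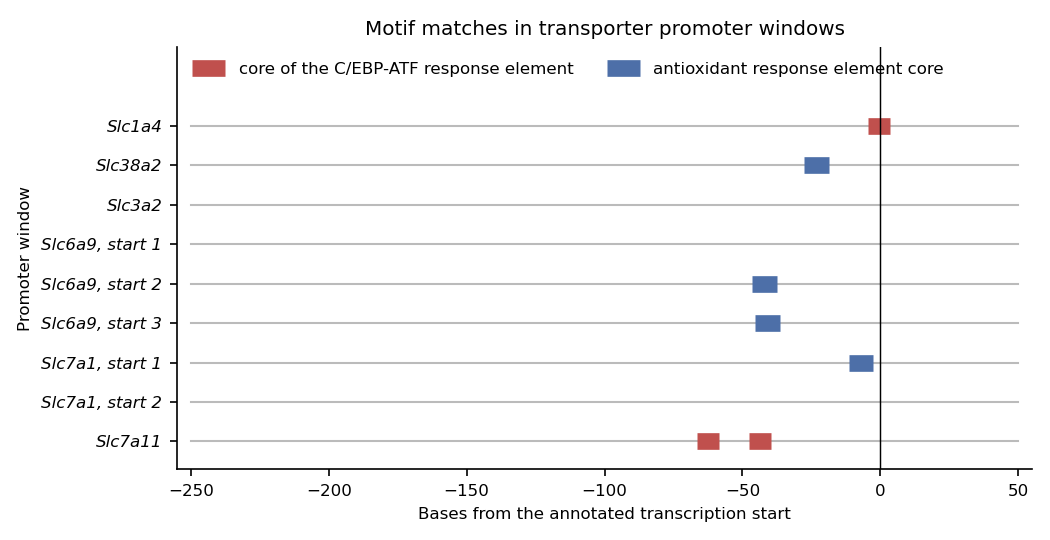
Position of motif matches (boxes) relative to the annotated start (vertical line at 0) in the 9 promoter windows of 6 transporter genes, where Slc6a9 and Slc7a1 have several starts. The C/EBP-ATF response element core appears in Slc7a11 (2 matches before the start) and in Slc1a4 (1 match at the start), and the antioxidant element core in Slc38a2, Slc6a9 and Slc7a1.

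The genes whose profile over the 6 libraries was most like that of Slc7a3, the called transporter with the largest log2 fold change, were sought among 10663 genes by Pearson's r of log2(FPKM + 1). Among the closest were Vip, a secreted neuropeptide (r = 0.999), Elk3, an ETS-family transcription factor (0.997), Aldh1l2, a mitochondrial folate enzyme (0.997), and Sema3f, a secreted guidance cue (0.997). Vip was at 0 FPKM in every control library and reached a group mean of 12.0 FPKM in bKO. In all, 412 genes had an r above 0.95. The 6 points form 2 separate groups, so any gene that is higher in bKO with little spread scores high on this measure.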

How the data were processed

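Poly(A)-selected RNA of mouse islets was sequenced as 150 bp paired ends, per the labels' protocols. The submitters' processing notes name GRCm38, HISAT2 2.0.5, featureCounts 1.5.0-p3, DESeq2 1.20.0 and CASAVA, with no role. The annotation release, the strand setting and the treatment of reads with several matches are not given in the sources used here. Each gene has 1 value per library in the deposited table. Its header names no unit, and the values are those of FPKM made by the authors: value times gene length gave whole reads within 0.01 for 100% of values above 0, with 1 factor per library. Those factors were not proportional to the library totals, so the FPKM carry another scaling. The table had 0 columns of other samples.

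Groups came from the genotype labels. The log2(FPKM + 1) values of all genes with 0.5 FPKM or more in 3 or more libraries were fitted with limma 3.58.1 in R 4.3.3, with an empirical Bayes trend, two-sided, no covariate, and Benjamini-Hochberg adjustment over the 15717 genes. The p-values measure the spread between these libraries only. Count ratios have exact 95% intervals. The 10 genes and all gene lists were chosen with earlier results of these data known. Genes named outside the 10 are Ythdc1, up to 4 called genes per list with the smallest adjusted p, and the 5 genes most like Slc7a3 by Pearson's r (protein-coding, mean CPM of at least 5), 1 of which is not reported here. Others were named after their values were seen: Atf4, Ddit4, Gcg, Ins1, Ins2, Iapp, Pdx1, Ucn3, Gclc, Gclm, Arg1, Slc38a5, Itgam, Mrc1, Ppy, Pyy, Stc2, Sesn1 and the genes that overlap a transporter. Replicates of a group differed beyond sampling noise (chi-square per degree of freedom 4.09 to 6.50), so none was a copy of another. This measure cannot tell separate animals from separate preparations of the same RNA. Alternatives were other scalings, filters and pseudocounts, voom, a replicate block and leaving out each library. voom together with the CPM filter was added after seeing the data, because Slc7a11 missed the FPKM filter. Promoters are from RefSeq on GRCm38.p6. Gene positions are those of the table, and all 10 genes have the same start and end in GENCODE vM21, which gave the overlaps.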

Additional observations from a re-analysis of the deposited data

How the results depend on the processing

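The calls of Slc7a1, Slc7a2, Slc7a3, Slc7a5, Slc1a4 and Slc38a2 kept direction and threshold under all 16 settings, and Slc1a5 was called under none. The number of transporters that rose was 5 to 7. The number that fell was 2 in place of 1 with voom and with voom plus the CPM filter, which call Slc3a2 lower. Slc3a2 turned to a log2 fold change of 0.027 with library-total scaling. Slc6a9 was no longer called with quantile normalization, with no filter, with the replicate block and without any 1 of control 2, control 3, bKO 1, bKO 2 or bKO 3, with log2 fold changes of 0.39 to 0.49. The cause was not tested. Among the 35 other transporters, the number that rose was 5 with library-total scaling, 2 with the CPM filter, 3 with voom, 4 with voom plus the CPM filter, and 1 to 2 when a library was left out (2 without control 3), in place of 1. Of all genes, 3192 were called, and 1904 to 2783 when a library was left out, with fewer samples in the fit. Libraries of equal replicate number showed no sign of pairing (correlations of deviations -0.052, -0.014 and -0.073). With 3 libraries per group this check cannot exclude pairing. With the replicate block 2077 genes were called and Slc6a9 was not. Counting error weighs most on Slc7a3, Slc7a11, Slc1a5 and Slc6a9, each with at most 181 reads in any library.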

Other observations

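Of 10 tested amino acid carriers of the lysosome, 1 rose and 1 fell, against 8.96% and 11.4% of all genes tested. The median log2 fold change was -0.03. Slc38a7, a glutamine and asparagine carrier, went from 6.49, 5.95 and 6.18 FPKM to 8.08, 8.27 and 8.14, with a log2 fold change of 0.35 ± 0.05 (SE, adjusted p = 0.0048, limma). Slc7a14 had -0.28 ± 0.06 (adjusted p = 0.024) and was called under 9 of 16 settings.

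Of 32 tested genes of amino acid sensing by mTORC1, 3 rose and 6 fell, against 8.96% and 11.4% of all genes tested. This balance turned with scaling: 7 rose and 1 fell with scaling by library totals. With quantile normalization or the replicate block 3 rose and 3 fell, and 2 to 4 fell when a library was left out. Sestrins are inhibitors of this pathway. Sesn2 had a log2 fold change of 0.67 ± 0.05 (SE, adjusted p = 0.00046, limma) and Sesn3 of -0.30 ± 0.04 (adjusted p = 0.004), and Sesn1, named after its values were seen, of -0.22 ± 0.05 (adjusted p = 0.021). Sesn1 was called under 10 of 16 settings. Wdr59, a subunit of the GATOR2 complex, had 0.57 ± 0.06 (adjusted p = 0.0013), and the GTPase Rragd 0.32 ± 0.05 (adjusted p = 0.0081). The eIF2α kinases and phosphatase subunits act before ATF4. Of 9 tested genes for them, 2 rose and none fell, against 8.96% and 11.4% of all genes tested. With scaling by library totals 4 rose, and under the replicate block 1. Ppp1r15a, the stress-induced phosphatase subunit, had 0.41 ± 0.05 (adjusted p = 0.0023) and the kinase Eif2ak3 0.23 ± 0.05 (adjusted p = 0.024). Eif2ak3 was called under 10 of 16 settings.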
